A study of Mus musculus with 8 samples.

Results

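Snord60 and Snord104 are box C/D small nucleolar RNAs, and fragments of both were listed under piRNA names in small RNA of mouse sperm. The fragments were taken from a pair of deposited tables, each piRNA name once, where a listed locus lay whole inside a short window around Snord60 on chromosome 17 or Snord104 on chromosome 11 of the mm10 genome build. This gave 63 names of the 20210 names in the 2 tables together, 24 in Snord60 and 39 in Snord104. All 24 Snord60 names stood in both tables. Of the Snord104 names, 37 stood in the table of MC-LR, 38 in the table of the shRNA and 36 in both. Every one of the 63 names lay on the plus strand, the strand of the snoRNAs, and had a single listed locus. The 2 genes were chosen by the fold change of their fragments with the shRNA against Hsp90aa1, among the steepest falls of that table. Their values in that comparison are therefore given as a description, with no test, and tests were made in the MC-LR comparison.

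Box C/D snoRNAs are short RNAs of the nucleolus that pair with ribosomal RNA and direct the methylation of a ribose at the paired site. Their name comes from short conserved motifs, box C near the 5′ end and box D near the 3′ end, with further copies called C′ and D′ in the middle, where the core proteins of the particle, fibrillarin among them, assemble. Snord60 and Snord104 are both known as guides for methylation of large-subunit ribosomal RNA. Fragments of snoRNAs are common in small RNA libraries, and piRNA catalogues built from sequenced small RNA can hold fragments of other noncoding RNAs, so a piRNA name is used here as a label of a sequence and not as a statement about PIWI binding.

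The sperm came from Balb/c mice at postnatal month 8. There were 4 groups of 2 libraries, lettered A and B: a control and an MC-LR exposure in the one table, and in the other an Hsp90aa1 shRNA with its negative-control shRNA. MC-LR is microcystin-LR, a cyanobacterial inhibitor of protein phosphatases, and Hsp90aa1 encodes the chaperone HSP90 alpha. The design text speaks of different doses of MC-LR, but the sample labels give no dose, and they give neither the shRNA vector nor the cells that received it. The labels do not tell whether A and B are separate animals, and p-values therefore cover the spread between 2 libraries of a group, which may be technical only. The messenger RNA of Hsp90aa1 is not measured in small RNA, and the shRNA labels could not be checked on it. Values are RPM, a read count divided by the total of its library, and each table was scaled and tested alone.

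The whole annotated snoRNAs are shown first, since the position of a fragment relative to the boxes decides how it is grouped below. Letters come from the GENCODE M21 transcripts of the GRCm38 assembly, the assembly of mm10, 5′ to 3′. Capitals mark matches to TGATGA (the box C core) and to CTGA (the box D core, also that of D′), searched on the sense strand only.
Snord60: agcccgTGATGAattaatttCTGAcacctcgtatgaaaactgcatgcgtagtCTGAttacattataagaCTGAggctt
Snord104: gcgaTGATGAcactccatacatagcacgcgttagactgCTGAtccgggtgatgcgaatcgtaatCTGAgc

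Snord60 lies at 17:24528476-24528553 and is 78 bases long. It sits inside the span of Rab26os (17:24528251-24528744 in RefSeq), a long noncoding RNA read from the strand opposite to the gene Rab26. Snord104 lies at 11:106500993-106501062 and is 70 bases long in GENCODE. RefSeq gives it as 11:106500991-106501063, 73 bases. Snord60 holds TGATGA at position 7 and CTGA at positions 21, 53 and 70, counted from its annotated 5′ end, and Snord104 holds TGATGA at position 5 and CTGA at positions 39 and 65. Of the 97 annotated mouse genes named Snord, 75.3% contain TGATGA and 100% contain CTGA. Of the 40 genes named Snora, the H/ACA class that directs pseudouridine formation, none contains TGATGA and 52.5% contain CTGA.

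The fragments that the results turn on are shown next, with matches to the same motifs in capitals. The first 3 share the 5′ end of Snord60 and differ only in their last base. The next 2 are abundant fragments of the 3′ end of Snord60, and the last 2 are the most abundant fragments of the 3′ end of Snord104.
piR-mmu-16030528: agcccgTGATGAattaatttCTGA
piR-mmu-15709216: agcccgTGATGAattaatttCTGAc
piR-mmu-29258889: agcccgTGATGAattaatttCTGAca
piR-mmu-42417073: tgattacattataagaCTGAggctt
piR-mmu-49484631: attacattataagaCTGAggctt
piR-mmu-17023724: tccgggtgatgcgaatcgtaatCTGAgc
piR-mmu-16157674: ccgggtgatgcgaatcgtaatCTGAgc
The fragments of the 5′ end of Snord104 begin 2 or 3 bases before the GENCODE start, and their sequences are not printed here.

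The library totals behind the RPM scale were 4960467 to 14634370 reads, and a count of 3 reads corresponds to 0.205 to 0.605 RPM. Summed over all names, the tables held 38.1% and 35.3% of the control totals against 12.5% and 11.7% under MC-LR. They held 27.8% and 32.5% of the negative-control shRNA totals against 4.98% and 3.18% with the Hsp90aa1 shRNA. Most names were thus lower in the treated libraries of both tables, with a median log2 ratio of group means of −1.66 over all names under MC-LR and of −2.86 with the Hsp90aa1 shRNA, so each value below is read beside that of all names. In bulk sperm RNA, fewer cells that carry a fragment and less of it per cell cannot be told apart. Names of 17 to 35 nt were listed, so the full-length snoRNAs were not measured and nothing here gives their level.

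The listed fragments of both snoRNAs were of 2 kinds, with no listed name between them. The 5′ arm is used here for names whose middle lies in the first part of the snoRNA, the 3′ arm for the others. All 6 names of the 5′ arm of Snord60 started exactly at the annotated first base and ended at positions 24 to 32. They keep the box C motif and end with the CTGA at position 21 or a few bases past it. The 18 names of its 3′ arm had 10 different starts, at positions 47 to 59, and ended at positions 75 to 78. They carry the last CTGA and all or part of the closing bases. No listed name covered positions 33 to 46, a gap of 14 bases. Snord104 likewise had a 5′ arm and a 3′ arm with a gap between them, but its 5′ names end before its first CTGA, at position 39. Its 5′ arm held 11 names in the MC-LR table and 13 in the shRNA table, which began 2 or 3 bases before the GENCODE start, where RefSeq begins it 2 bases before, and ended at positions 16 to 31. Its 3′ arm held 26 and 25 names with 12 different starts at positions 42 to 54, and ends from position 67 to position 73, up to 3 bases past the GENCODE end. The names that end at position 67 stop inside the last CTGA, which begins at position 65. Positions 32 to 41 of Snord104, 10 bases, were covered by no listed name. The 5′ arms thus share a start and differ in where they end, and the 3′ arms differ at their start.

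**Figure D1:**
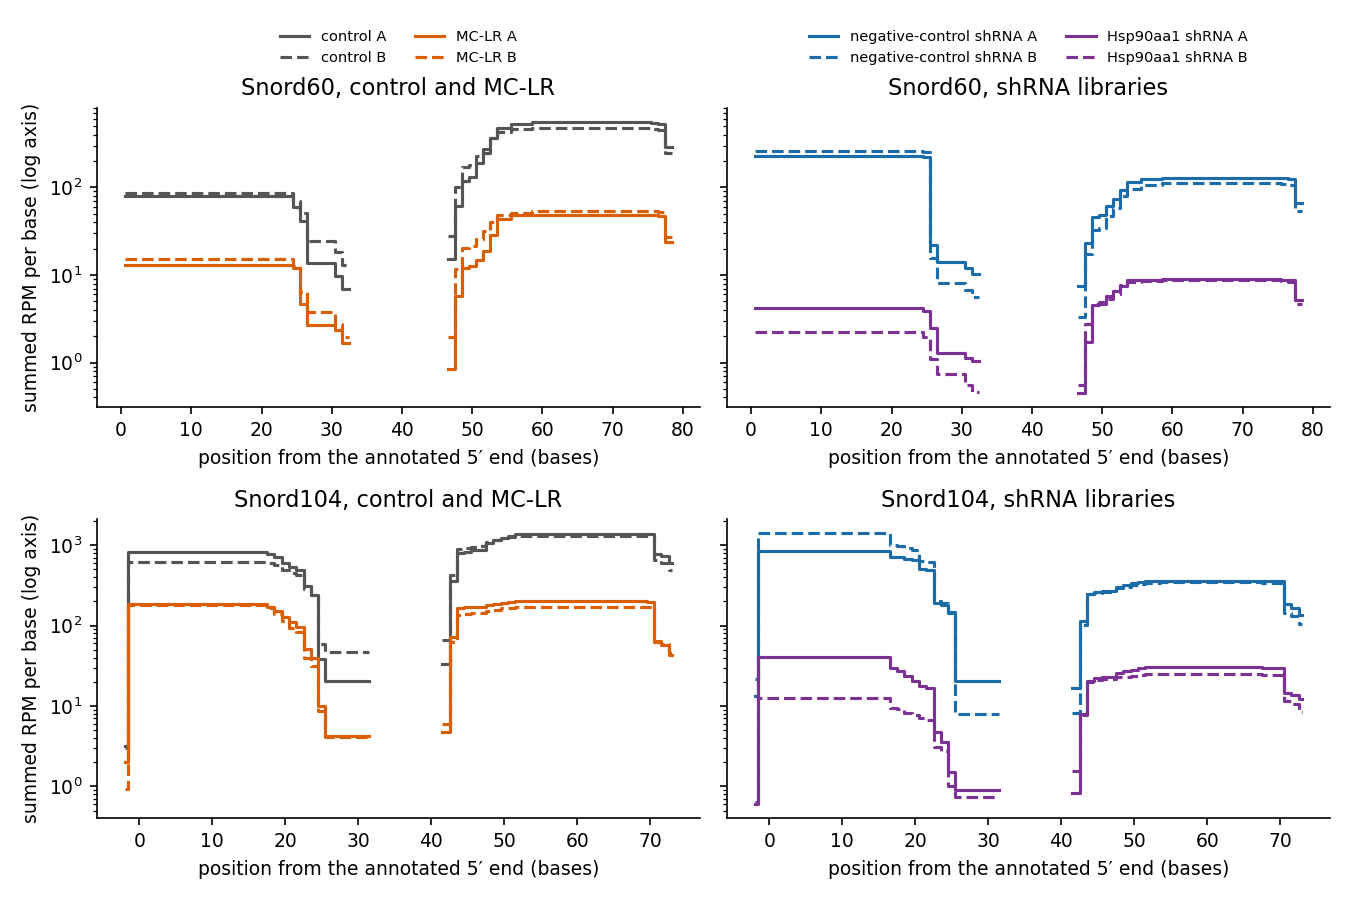
Summed RPM of the names that cover each base (vertical axis, log scale) along the annotated snoRNA (horizontal axis, bases from the annotated 5′ end), for Snord60 above and Snord104 below, MC-LR table on the left and shRNA table on the right; solid lines are libraries A and dashed lines libraries B, and breaks in a line are bases covered by no name. The gap at positions 33 to 46 of Snord60 and 32 to 41 of Snord104 stands in all 8 libraries, and the treated lines lie below the control lines at every covered base.

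Nested names differed widely in level, so a read was not counted at every name that contains it. Among the 3 names of the 5′ end of Snord60 shown above, the 25-base piR-mmu-15709216 stood at 199 and 236 RPM in the negative-control shRNA libraries. The 24-base piR-mmu-16030528 stood at 5.77 and 6.88 RPM there and the 26-base piR-mmu-29258889 at 7.83 and 7.47 RPM. A single added or removed base at the 3′ end thus separated levels by more than the spread between the libraries.

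Under MC-LR the fragments of both snoRNAs were lower in both libraries. Summed over its names, Snord60 stood at 646.8 RPM in control A and 562.9 RPM in control B, and at 61.9 and 69.0 RPM in the MC-LR libraries. The means were 605 ± 59.3 and 65.5 ± 5.02 RPM (SD, n = 2 each), 9.23-fold lower, from 9465 and 2792 reads against 368 and 453. Snord104, not scaled for its length of 70 bases against 78, summed to more, at 2205 and 1920 RPM in control and 386.5 and 353 RPM under MC-LR. Its means were 2063 ± 202 and 370 ± 23.7 RPM (SD, n = 2 each), 5.58-fold lower, from 32273 and 9524 reads against 2296 and 2316. For both sums the MC-LR libraries lay far below the control libraries and the 2 libraries of a group were close to each other. In a limma fit over the sums of 405 annotated small RNA genes, the log2 change was −3.19 ± 0.32 (SE) for Snord60 and −2.47 ± 0.32 (SE) for Snord104 (limma adjusted p = 1.41e-20 and 3.31e-13). In that fit 92.3% of the gene sums were lower, and the p-values rest on a spread shared by all gene sums, which makes them too small for 2 libraries a group; an exact permutation test of 2 against 2 cannot go below 0.333. With edgeR on the recovered reads and TMM factors, which scale within the list, Snord60 stayed lower at −1.06 (adjusted p = 0.00586) and Snord104 did not pass at −0.34 (adjusted p = 0.409). The share called lower in that fit was 13.8% of gene sums.

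**Figure D2:**
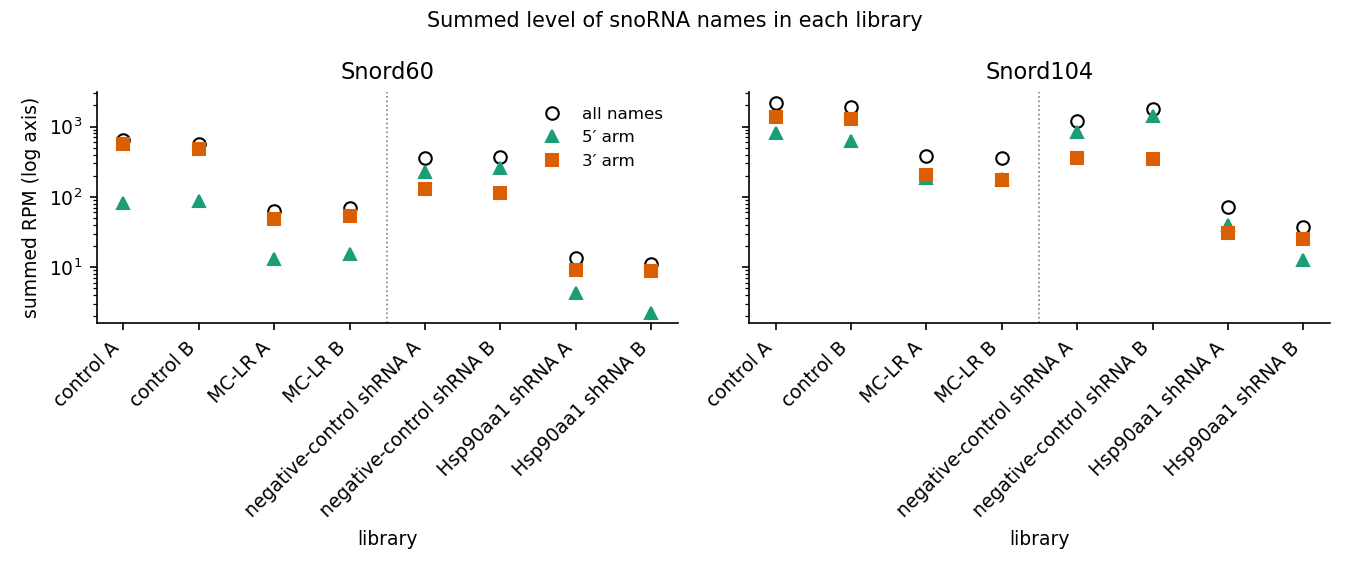
Summed RPM of the fragments of Snord60 and Snord104 (vertical axis, log scale) in each of the 8 libraries (horizontal axis), for all names (open circles), the 5′ arm (triangles) and the 3′ arm (squares); each mark is 1 library, and the dotted line parts the 2 tables. The MC-LR libraries lie below the controls in both arms. In the shRNA table the 5′ arm falls further than the 3′ arm, in Snord60 through piR-mmu-15709216.

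By single names, all 24 of Snord60 and 36 of 37 of Snord104 were lower under MC-LR in limma at a false discovery rate of 0.05, where 73.1% of the 13271 names tested were called lower. All names of both snoRNAs passed the filter on low values. Their control and MC-LR libraries did not overlap for 24 of 24 and 37 of 37 names, against 92.6% of the names of the table. The median limma log2 fold change was −2.88 for Snord60 (range −3.42 to −1.34) and −2.55 for Snord104 (range −3.94 to −0.76), beside −1.17 over all names. Limma changes of names are differences of log2(RPM + 1), which understates the change of low names.

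In the 3′ arm of Snord60 all 18 names were lower, by ratios of means from 7.28-fold (piR-mmu-49489871) to 23.4-fold (piR-mmu-67930017). The most abundant, piR-mmu-42417073 at 17:24528529-24528553, stood at 60.5 and 42.1 RPM in control and 7.57 and 5.03 RPM under MC-LR (log2 fold change −2.84 ± 0.37 SE, limma adjusted p = 0.000275). Its neighbour piR-mmu-49484631, at 17:24528531-24528553 and 2 bases shorter, stood at 63.0 and 33.3 RPM against 4.88 and 3.05 RPM (−3.26, limma adjusted p = 0.000256). The fragment piR-mmu-9253232, which begins at position 53 with the middle CTGA, went from 51.7 and 42.3 to 3.70 and 4.73 RPM (−3.20). Over the arm the limma changes ran from −3.42 to −2.19, with a median of −2.99. On the log2(RPM + 1) scale the largest fall of Snord60 was that of piR-mmu-20820347, positions 51 to 77, at 32.5 and 25.6 RPM in control against 1.18 and 2.59 RPM (−3.42). By the ratio of means it was that of piR-mmu-67930017, positions 52 to 75, which ends 3 bases short of the snoRNA. It stood at 16.7 and 10.1 RPM in control and at 0.842 and 0.305 RPM under MC-LR, 5 and 2 reads.

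In the 5′ arm of Snord60 the change differed with the last base. The 26-base piR-mmu-29258889 (17:24528476-24528501) went from 27.9 and 26.6 RPM to 2.02 and 2.59 RPM (−3.10 ± 0.34 SE, limma adjusted p = 0.000241). The 24-base piR-mmu-16030528 (17:24528476-24528499) went from 21.1 and 15.3 RPM to 1.01 and 2.44 RPM. Between them in length, piR-mmu-15709216 (17:24528476-24528500) went only from 18.0 and 19.6 RPM to 7.24 and 6.40 RPM (−1.34 ± 0.34 SE, limma adjusted p = 0.00659). In control it was the least abundant of these 3 names in library A and under MC-LR it was the most abundant in both libraries. Its call was lost without MC-LR B (limma adjusted p = 0.0741). Leaving out a library leaves 1 in its group, which is assumed to vary like the other group, here and below. Scaled within the list its change was 0.24 (edgeR with TMM factors, adjusted p = 0.797), while that of the 26-base name stayed at −1.85 (adjusted p = 0.0222). The longest of the arm, the 32-base piR-mmu-66966196, went from 6.90 and 13.1 RPM to 1.68 and 1.98 RPM (−1.90).

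Among the names of Snord104, both of its leading 3′ fragments ended exactly at the GENCODE end. The name piR-mmu-16157674 (11:106501036-106501062) stood at 307 and 316 RPM in control and at 73.0 and 52.9 RPM under MC-LR (−2.31 ± 0.34 SE, limma adjusted p = 0.000438). One base longer at its 5′ end, piR-mmu-17023724 (11:106501035-106501062) stood at 279 and 308 RPM against 62.8 and 50.8 RPM (−2.36, limma adjusted p = 0.000364). These 2 names moved together, and neither passed with TMM factors (−0.60 and −0.67, edgeR adjusted p = 0.445 and 0.392). On the log2(RPM + 1) scale the largest fall of all names of both snoRNAs was that of piR-mmu-49719062 (11:106501040-106501065), which runs 3 bases past the GENCODE end. It went from 136 and 95.4 RPM to 7.41 and 5.64 RPM (−3.94 ± 0.36 SE, limma adjusted p = 0.000241) and stayed lower with TMM factors (−2.43, edgeR adjusted p = 0.00256). With the same last base, piR-mmu-12406065 went from 7.79 and 7.26 RPM to 0.168 and 0.305 RPM, which are 1 and 2 reads, and had the lowest ratio of means.

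Grouped by last base, the summed 3′ arm of Snord104 fell unevenly under MC-LR. The 3 names that end at position 70, the GENCODE end, summed to 589 and 627 RPM in control and to 136 and 104 RPM under MC-LR, 5.06-fold lower. The 12 names that end at position 73 summed to 597 and 496 RPM in control and to 43.6 and 45.7 RPM, 12.2-fold lower. In control the 2 sets of ends were thus about equal, and under MC-LR the longer end was the lower in both libraries. Names ending at positions 71 and 72 lay between, 8.60-fold and 9.02-fold lower. Those ending at positions 67 and 69, with control means of 12.4 and 2.71 RPM, were 5.14-fold and 5.54-fold lower. The sum at position 70 is almost wholly that of the 2 leading names. The third name there, piR-mmu-58278658, is low and fell 8.28-fold by the ratio of means, more than 1 of the 12 names that end at position 73 (piR-mmu-12371039, 7.19-fold), so single names of the 2 sets overlapped. The starts differed too, at positions 43 to 45 for the end at position 70 and 42 to 54 for that at position 73. At starts 43, 44 and 45 the ends at positions 70 and 73 were 5.17-fold and 11.1-fold, 4.95-fold and 7.19-fold, and 8.28-fold and 12.4-fold lower. Names that start at position 46 or later and end at position 73 were 12.2-fold to 31.8-fold lower. The sums thus do not tell start and end apart. The split by last base was made after the values were seen and the difference was not tested. In the shRNA table the same ends did not differ in this way, at 13.0-fold lower for position 70 and 11.7-fold lower for position 73. In Snord60 the ends at positions 77 and 78 were 9.32-fold and 10.7-fold lower under MC-LR. Its shorter ends at positions 75 and 76, 1 name each, were 23.4-fold and 9.39-fold lower.

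The 5′ arm of Snord104 moved least. Its most abundant name in control, the 26-base piR-mmu-3948615 (11:106500991-106501016), went from 205 and 178 RPM to 30.1 and 23.0 RPM (−2.81 ± 0.35 SE, limma adjusted p = 0.00025). The 24-base piR-mmu-48741031 (11:106500991-106501014) went from 176 and 134 RPM to 43.1 and 42.7 RPM (−1.82, limma adjusted p = 0.00152) and was the more abundant of the pair under MC-LR. The single name of Snord104 without a call, piR-mmu-48907686, begins 3 bases before the GENCODE start. It stood at 3.14 and 3.02 RPM in control and 2.02 and 0.915 RPM under MC-LR (−0.76, limma adjusted p = 0.0703). Just inside the threshold was the 20-base piR-mmu-48805246, at 58.3 and 29.0 RPM against 17.0 and 23.6 RPM (−1.003, limma adjusted p = 0.0445). Its call was lost without control A (limma adjusted p = 0.178) and without MC-LR A or B (0.248 and 0.0842).

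Much of the call of single names goes with the scale of the whole library. With TMM factors, which put the median of all names at 0.06, edgeR called 7 of the 24 Snord60 names and 11 of the 37 Snord104 names lower and none of them higher, where 2.23% of all names were called lower. The Snord60 names that stayed lower were 1 of 6 in the 5′ arm and 6 of 18 in the 3′ arm. All 11 of Snord104 lay in the 3′ arm, 11 of 26, with a median of −1.76, and none of the 11 names of its 5′ arm passed, with a median of −0.10. As a share of all listed RPM of a library, Snord60 went from 0.170% and 0.160% in control to 0.0497% and 0.0589% under MC-LR, and Snord104 from 0.579% and 0.544% to 0.310% and 0.301%. Both snoRNAs were thus also lower within the list by this measure, Snord60 more than Snord104.

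**Figure D3:**
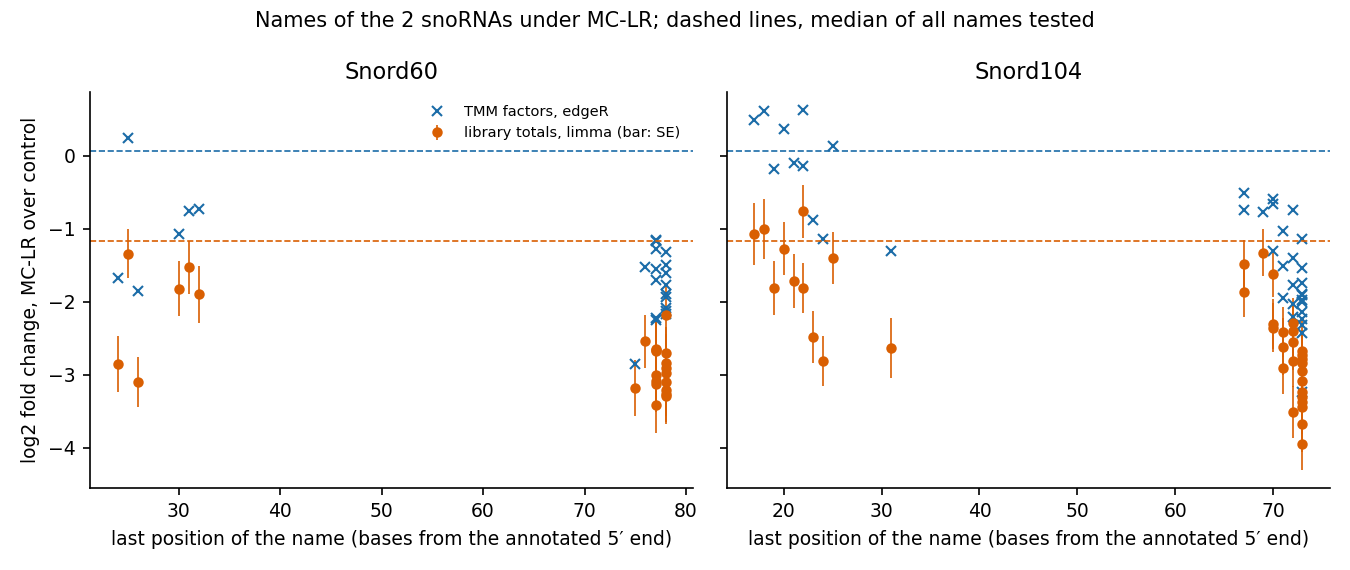
Log2 fold change under MC-LR (vertical axis) of every Snord60 and Snord104 name by the position of its last base (horizontal axis, bases from the annotated 5′ end; 5′ arms on the left of each panel, 3′ arms on the right); circles are limma on library totals with bars of 1 SE, crosses edgeR with TMM factors, and dashed lines the medians of all names tested, −1.17 and 0.06. The medians of the 3′ arms lie below those of the 5′ arms, and with TMM factors the 5′ arm of Snord104 has a median of −0.10.

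The arms were then compared with each other. The 5′ arm of Snord60 summed to 80.8 and 85.9 RPM in control and 13.0 and 15.2 RPM under MC-LR, 5.91-fold lower, and its 3′ arm to 565.9 and 477.0 against 49.0 and 53.8 RPM, 10.1-fold lower. The 5′ arm of Snord104 summed to 824 and 621.9 RPM against 184.1 and 181.7 RPM, 3.95-fold lower, and its 3′ arm to 1381 and 1298 against 202.3 and 171.3 RPM, 7.17-fold lower. The share of the 5′ arm in the sum therefore went from 12.5% and 15.3% to 20.9% and 22.1% for Snord60 and from 37.4% and 32.4% to 47.6% and 51.5% for Snord104. The MC-LR libraries lay above the controls in both snoRNAs, though for Snord60 the groups overlapped without piR-mmu-15709216. In limma on the log2 ratio of the arms over the 53 genes named Snord that had both arms, a test added after the values were seen, the ratio was higher by 0.83 ± 0.29 (SE) for Snord60 and by 0.88 ± 0.30 (SE) for Snord104. Neither passed (limma adjusted p = 0.0845 and 0.0787), where 35.8% of the 53 genes were called higher. The Snord60 ratio passed without control B (1.00, limma adjusted p = 0.0304), and the Snord104 ratio without control A (1.03, limma adjusted p = 0.0427). The ratio was also above 0 in 46 of the other 51 genes, with a median of 1.00, and the 5′ share of these genes summed went from 41.6% and 42.6% to 58.6% and 59.8%, so the direction was not particular to Snord60 and Snord104.

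Among the other snoRNA genes, taken by name from the annotation, the sums of all 74 other Snord genes were lower under MC-LR in limma, with a median log2 change of −2.34. Of 28 Snora genes 27 were lower (median −2.19), and of 7 Scarna genes, guides of the Cajal body, all 7 (median −1.53), beside a median of −1.75 over all 405 small RNA genes. Snord60, at −3.19, lay near the low end of this list, with 12 of 109 other snoRNA genes below it, and Snord104, at −2.47, nearer its middle, with 42 of 109 below it. With TMM factors 17 of 74 Snord genes, 11 of 28 Snora genes and none of 7 Scarna genes were lower, and 1 Snora and 2 Scarna genes were higher. The snoRNA next to Snord104, Gm22711 at 11:106501243-106501377, had a single name. It stood at 1.23 and 1.41 RPM in control and 0.168 and 0.610 RPM under MC-LR (−0.76, limma adjusted p = 0.0367), and it had no name in the shRNA table. No other name of either table lay within 2 kb of Snord60 or Snord104.

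With the shRNA against Hsp90aa1, the comparison that chose these snoRNAs, Snord60 stood at 355.5 RPM in negative-control shRNA A and 369.8 RPM in B, and at 13.2 and 10.9 RPM in the Hsp90aa1 shRNA libraries. The means were 363 ± 10.1 and 12.1 ± 1.66 RPM (SD, n = 2 each), 30.0-fold lower, from 3452 and 4948 reads against 177 and 118. Snord104 stood at 1199 and 1769 RPM against 70.7 and 37.5 RPM. Its means were 1484 ± 403 and 54.1 ± 23.5 RPM (SD, n = 2 each), 27.4-fold lower, from 11645 and 23676 reads against 945 and 406. The Hsp90aa1 shRNA libraries lay below the negative-control libraries for all 24 Snord60 names and all 38 Snord104 names, as they did for 99.8% of all names of the table, so nothing is read from these counts. The log2 ratio of the sums was −4.91 for Snord60 and −4.78 for Snord104, beside a median of −3.35 over 102 other snoRNA genes, 8 and 9 of which lay lower, and a median of −2.85 over 483 small RNA genes.

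A few fragments of the 5′ arms made up much of these sums. In Snord60, piR-mmu-15709216 alone held 55.9% and 63.8% of the sum in the negative-control shRNA libraries and 10.7% and 7.63% in the Hsp90aa1 shRNA libraries. Its mean was 217 ± 26.1 RPM with the negative-control shRNA and 1.13 ± 0.418 RPM with the Hsp90aa1 shRNA (SD, n = 2 each), 193-fold lower, with 19 and 9 reads left. Without this name Snord60 summed to 156.6 and 134 RPM against 11.8 and 10.1 RPM, 13.3-fold lower. The same name held 2.79% and 3.47% of the Snord60 sum in the control libraries of the other table and 11.7% and 9.27% under MC-LR. Its share was thus high in the negative-control shRNA libraries and several-fold lower in the other 6.

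In Snord104 the level was spread over several ends of the 5′ arm. The 24-base piR-mmu-48741031 stood at 296 and 411 RPM with the negative-control shRNA and 11.4 and 3.14 RPM with the Hsp90aa1 shRNA. The 18-base piR-mmu-48715608 (11:106500991-106501008), listed in the shRNA table alone, stood at 121 and 403 RPM against 10.03 and 3.14 RPM. The 22-base piR-mmu-42894 stood at 146 and 228 RPM against 2.62 and 0.646 RPM. Negative-control shRNA B lay above A in all 3 names, most of all in the 18-base one, and the Hsp90aa1 shRNA libraries lay below both. The lowest ratio of the arm was that of the 27-base piR-mmu-29449009 (11:106500991-106501017), at 121 and 141 RPM against 0.599 and 0.277 RPM, 8 and 3 reads. In the other table this name stood at 17.3 and 12.9 RPM in control and 5.72 and 4.42 RPM under MC-LR, a smaller change.

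The summed 3′ arms changed less in this comparison than the summed 5′ arms. That of Snord60 summed to 128.9 and 111.5 RPM against 9.06 and 8.68 RPM, 13.6-fold lower, while its 5′ arm went from 226.6 and 258.3 to 4.19 and 2.22 RPM, 75.7-fold lower. That of Snord104 summed to 359.4 and 343.9 RPM against 30.5 and 24.8 RPM, 12.7-fold lower, while its 5′ arm went from 839.8 and 1425 to 40.2 and 12.6 RPM, with Hsp90aa1 shRNA B the lower by far. The 5′ share of the sum went from 63.7% and 69.8% to 31.6% and 20.3% in Snord60 and from 70.0% and 80.6% to 56.8% and 33.7% in Snord104. In Snord60 this rested on 1 name, piR-mmu-15709216, 193-fold lower. The other 5′ names of Snord60 were 9.77-fold to 21.9-fold lower, beside 13.6-fold for its 3′ arm. Without piR-mmu-15709216 the 5′ shares of the groups overlapped. The 2 leading 3′ names of Snord104 fell alike, piR-mmu-16157674 from 87.8 and 109 to 9.06 and 7.94 RPM (11.6-fold) and piR-mmu-17023724 from 84.1 and 85.0 to 6.14 and 4.89 RPM (15.3-fold). In the 3′ arm of Snord60, piR-mmu-5390328 changed least (11.7 and 8.00 against 1.87 and 1.38 RPM, 6.06-fold), and piR-mmu-49484631 was down to 2 reads in each Hsp90aa1 shRNA library (11.5 and 10.8 against 0.150 and 0.185 RPM). In the other Snord genes with both arms, 44 in this table, the 5′ share was 64.5% and 75.9% against 67.2% and 60.5%, groups that overlap. The 5′ share thus moved up under MC-LR and down with the Hsp90aa1 shRNA in both snoRNAs. In Snord60 the groups were apart only when piR-mmu-15709216 was counted. In the other Snord genes the groups were apart under MC-LR and overlapped in the shRNA table.

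With the negative-control shRNA, the abundant 5′ fragments shared the place where they end. The 5′ parts of both snoRNAs are shown with every CA or TA step from position 15 on in capitals. These names end after the first base of such a step, though none ends at the TA at position 15 of Snord60. This feature was noticed in the values and was not tested.
Snord60 5′ part, positions 1 to 33: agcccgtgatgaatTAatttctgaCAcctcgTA
Snord104 5′ part, positions 1 to 26: gcgatgatgacactcCATACATAgCA
In Snord60, 2 of the 6 names of the 5′ arm end between the bases of such a step, the 25-base piR-mmu-15709216 and the 32-base piR-mmu-66966196. In Snord104 they are 5 of 11 names in the MC-LR table and 7 of 13 in the shRNA table, among them piR-mmu-48715608, piR-mmu-42894, piR-mmu-48741031 and piR-mmu-29449009.

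Names ending at such a step held most of the 5′ arm in the negative-control shRNA libraries and a smaller share in the other groups. In Snord60 they held 92.3% (95% Wilson interval 91.1 to 93.4) and 93.5% (92.6 to 94.2) of the 5′ arm with the negative-control shRNA. Of the 209 and 241 RPM of these names there, 199 and 236 RPM were piR-mmu-15709216. With the Hsp90aa1 shRNA the names ending at such a step held 58.9% (45.9 to 70.8) and 58.3% (38.8 to 75.5), from 56 and 24 reads. In the other table they held 30.9% (28.3 to 33.5) and 38.0% (33.5 to 42.7) in control and 68.8% (57.8 to 78.1) and 55.0% (45.2 to 64.4) under MC-LR, from 77 and 100 reads in the latter. The share was lower in the treated group of the shRNA table and higher in the treated group of the MC-LR table, and the groups overlapped in neither. These intervals cover counting error only.

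Snord104 moved in the same directions. Its share was 86.7% and 89.7% with the negative-control shRNA, 73.4% and 68.6% with the Hsp90aa1 shRNA, 38.4% and 35.3% in control and 47.3% and 50.9% under MC-LR. Summed, Snord60 names ending at such a step were 120-fold lower with the Hsp90aa1 shRNA and the other names of the arm 13.0-fold lower. The former sum was mostly piR-mmu-15709216, 193-fold lower. The second such name, piR-mmu-66966196, went from 10.3 and 5.61 RPM to 1.05 and 0.462 RPM, 10.5-fold lower, so the difference rests on 1 name. Under MC-LR the sums went the other way round, 3.33-fold lower for names ending at such a step and 10.01-fold lower for the others. These 2 names were 2.76-fold and 5.46-fold lower there. In Snord104 the names ending at such a step went from 728 and 1278 RPM to 29.5 and 8.68 RPM with the Hsp90aa1 shRNA, and the others from 111 and 148 RPM to 10.7 and 3.97 RPM. Hsp90aa1 shRNA B lay well below A in both, so no fold is given. Under MC-LR the former were 2.98-fold and the latter 4.89-fold lower. In the 5′ arms of other Snord genes, the share ending at a CA or TA step was 54.7% and 63.6% against 35.4% and 28.8% in the shRNA table (280 names of 46 genes). It was 20.6% and 14.97% against 21.1% and 21.3% in the MC-LR table (351 names of 49 genes). The share was thus lower with the Hsp90aa1 shRNA in the other Snord genes too, which started from lower shares than Snord60 and Snord104.

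**Figure D4:**
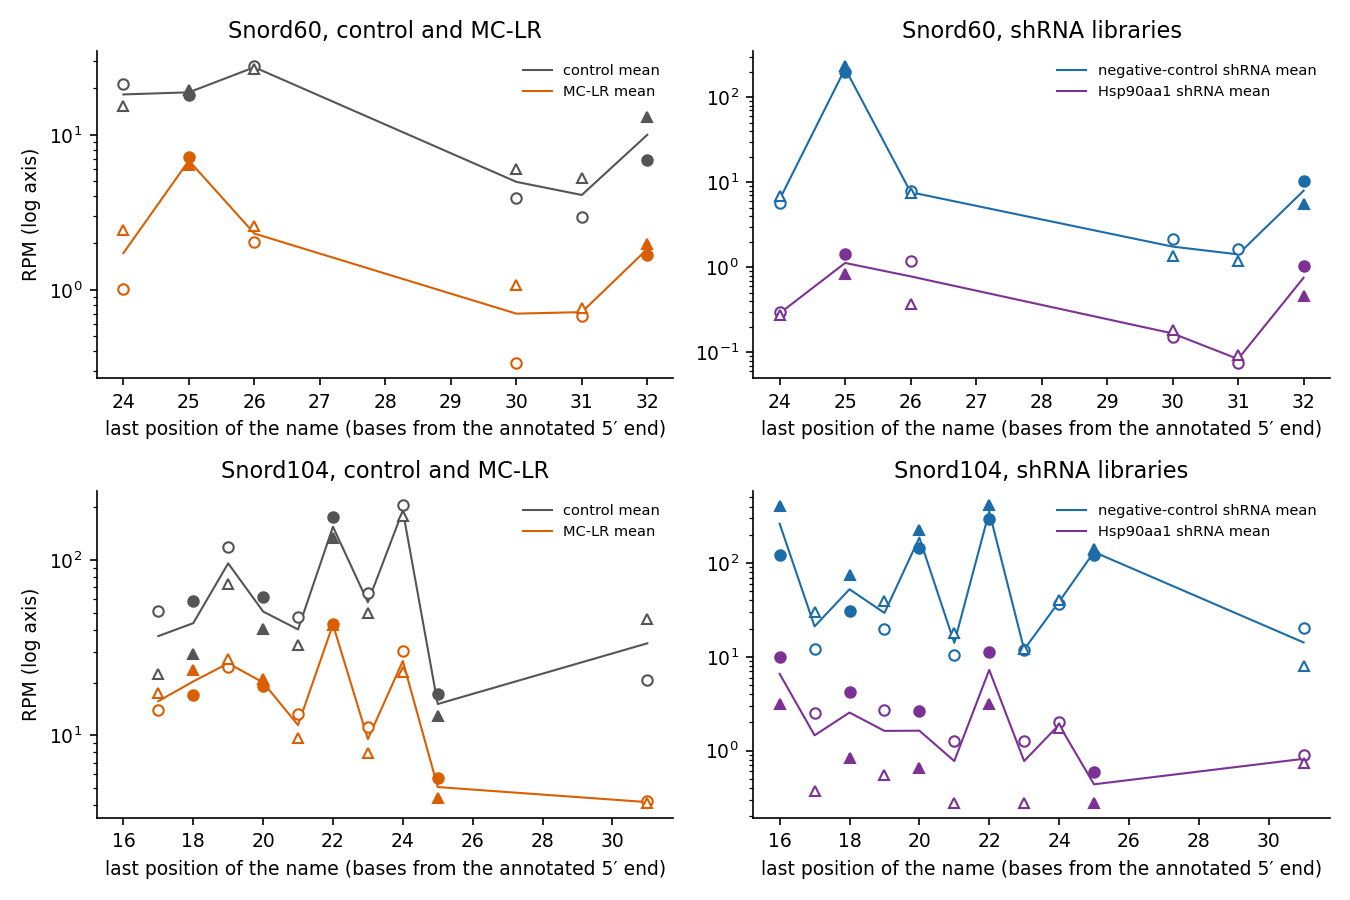
RPM (vertical axis, log scale; ranges differ between panels) of the names that begin at the common 5′ end of Snord60 or Snord104, by the position of their last base (horizontal axis, bases from the annotated 5′ end); circles are libraries A and triangles libraries B, lines join the group means, and filled marks are names ending at a CA or TA step, open marks the others. With the negative-control shRNA the Snord60 name ending at position 25 reaches 199 and 236 RPM between neighbours under 8 RPM, a level that no other group reaches.

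The ratio of the 2 sums, not scaled for length, was also compared. Snord104 was 3.41 times as high as Snord60 in both control libraries and 3.37 and 4.78 times as high in the negative-control shRNA libraries. Under MC-LR the ratio was 6.24 and 5.11, above both control libraries, and with the Hsp90aa1 shRNA it was 5.34 and 3.44, overlapping its controls. Over the 8 libraries, each table centred at its own mean, the 3 snoRNA genes most like Snord60 in log2(summed RPM + 1) of 201 candidates were Gm23301, Snord58b and Snora73b. Their root mean square differences were 0.30, 0.32 and 0.33, where the median candidate was at 0.86 and Snord104 ranked 4 (0.33). For Snord104 they were Gm23301, Snord14e and Gm26202, at 0.22, 0.23 and 0.24, where the median candidate was at 0.88 and Snord60 ranked 11. These distances describe the libraries and share their depth and scaling.

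The label of the tissue was checked on microRNA genes, the only markers with values here. Of 5 germ line and sperm microRNA genes, the MC-LR table listed 2, Mir10a and Mir10b, and none of Mir34b, Mir34c and Mir449a, while the shRNA table listed all 5. Summed, this list stood at 294 and 199 RPM in control and 159 and 118 RPM under MC-LR, and at 6617 and 9685 against 1607 and 528 RPM in the shRNA table. Epithelial microRNA genes, 4 of 4 listed in both tables, summed to 6290 and 4629 against 2380 and 2456 RPM, and to 2552 and 3731 against 392 and 109 RPM. In the MC-LR table the germ line list rested on Mir10a and Mir10b alone and summed below the epithelial list in every library. The check thus did not settle the sperm label there. In the shRNA table the germ line list summed above the epithelial list in every library. Smooth muscle microRNA genes (2 of 2) summed to 297 and 219 against 108 and 133 RPM, and to 3682 and 7180 against 1023 and 219 RPM. Erythroid Mir451a stood at 1.91 and 3.02 against 0.505 and 1.07 RPM, and at 233 and 344 against 40.3 and 50.6 RPM. Leukocyte Mir142 and Mir223, the latter not listed in the shRNA table, summed to 20.8 and 19.0 against 8.08 and 12.3 RPM, and to 102 and 204 against 33.01 and 13.3 RPM, and liver Mir122 was listed in neither table. Except for liver, markers of other cell types were thus present in all groups and lower in the treated libraries, as the fragments of Snord60 and Snord104 were, and their part in the changes of the fragments was not tested.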

How the data were processed

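The authors deposited 2 tables of RPM values (a read count divided by its library total) per piRNA locus, with 4 libraries each. The submitters' processing notes name the mm10 build, HISAT2 2.1.0, Bowtie2 2.2.3 and HTSeq 0.6.0. What each tool did, and any trimming or listing rule, is not given in the sources used here. The labels' protocols name Trizol for extraction and an NEB kit for the libraries. Divided by what 1 read is worth, 100% of the values came out whole within 0.01, which gave back the reads and library totals. Without molecular identifiers, intervals and floors cover counting error only.

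The members, lists and rules were chosen with earlier results of these data known. Each name was used once. Names whose mean reached 1 RPM in a group were tested with limma 3.58.1 (trend and robust empirical Bayes, R 4.3.3) on log2(RPM + 1), with Benjamini-Hochberg adjustment over all names of the MC-LR table at 0.05. Sums were fitted likewise over all small RNA genes of GENCODE M21, with names assigned to a gene that covers at least 0.5 of their length. Alternatives were edgeR 4.0.16 (quasi-likelihood) and DESeq2 1.42.0 on the recovered reads, other pseudocounts and filters, and each library left out. The comparison of arms and of fragment ends was added after the values were seen. The scripts were checked on simulated counts. For each snoRNA and table, names were picked by rule. They were the 4 with the highest mean and the 2 with the lowest and the 2 with the highest ratio of group means. The highest name at each 5′ start with at least 5% of the sum in a control group was added. Some of these names are not printed here. Other names of Snord60 and Snord104 printed beside them were chosen after their values were seen. Python 3.11.15, pandas 2.3.3, numpy 2.4.6 and matplotlib 3.10.9 were used.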

Additional observations from a re-analysis of the deposited data

How the results depend on the processing

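With DESeq2 and with edgeR on TMM factors, which scale within the list, the count of lower names went from 24 to 11 and 7 for Snord60 and from 36 to 11 and 11 for Snord104, and that of other snoRNA genes from 108 to 25 and 28. The Snord104 sum did not pass under either, at −0.44 and −0.34 (adjusted p = 0.245 and 0.409). Of the 21 names picked by rule in the MC-LR table, not all of them printed above, 3 reversed without a call. They were piR-mmu-15709216 at 0.23 and 0.24, piR-mmu-48805246 at 0.59 and 0.61 and piR-mmu-48907686 at 0.61 and 0.62 (DESeq2 and edgeR). Of the rest, 7 lost their call with DESeq2 and 10 with edgeR. The scaling itself moves the median of all names from −1.64 on library totals to 0.06. Leaving out each library, which leaves 1 in its group to be judged by the spread of the other, gave 23 to 24 lower names for Snord60 and 30 to 36 for Snord104. The arm ratio passed with a pseudocount of 5 at 1.01 for Snord60 and 0.87 for Snord104 (limma adjusted p = 0.0329 and 0.0487), and ran from 0.66 to 1.00 and from 0.72 to 1.03 when a library was left out; the cause was not tested. In the shRNA table the log2 ratio of the Snord60 sum, −4.91, was −5.37 with 1 name per 5′ start and −1.99 relative to all listed names, and that of Snord104, −4.78, was −1.91 relative to all listed names. Names whose every locus lay inside the windows were the same set.

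No label says that the letters A and B pair libraries across groups, and in the MC-LR table, where tests were made, the deviations of the 2 groups correlated at 0.0652. With the letter as a replicate block, limma called 24 Snord60 names, 36 Snord104 names and 102 other snoRNA genes lower, and both sums passed (adjusted p = 0.00172 and 0.00189). Read counts are lowest in the treated libraries, where levels and not library totals were lowest. Snord60 rests on 368 and 453 reads under MC-LR and on 177 and 118 with the Hsp90aa1 shRNA.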
